A study of Mus musculus with 16 samples.

Results

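Flavin-containing monooxygenases (FMOs) are membrane enzymes that use FAD and NADPH to add oxygen to nitrogen or sulphur atoms of small molecules. Gut bacteria release trimethylamine (TMA) from choline and carnitine, and the liver oxidises it to trimethylamine N-oxide (TMAO). Of the genes described here, Fmo1 encodes a form known to act on TMA. Fmo5 is an abundant liver form known for Baeyer-Villiger oxidation rather than for TMA, Fmo2 is best known from the lung, and little is known of what Fmo4 oxidises. The genes described here are Fmo1, Fmo2, Fmo4 and Fmo5, taken as the probes whose gene name on the array equals one of these symbols. They are 4 of 20400 genes tested, and they have 11 of the 56605 probes.

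Liver RNA of 16 C57BL/6 male mice fed a normal chow (NC) was hybridized to Agilent arrays, 1 per mouse. All recipients were conventional (Conv) mice never given antibiotics, 6 weeks old at the start and killed after a 6-hour fast at 10 weeks of age, after 4 weeks of diet. Conv + PBS mice (n = 6) received the vehicle, reduced PBS, by gavage, although the sample labels describe them as not transplanted. Conv + LM mice (n = 5) received caecal microbiota of lean, NC-fed donors, and Conv + OM(HFD) mice (n = 5) received that of donors made obese by a high-fat diet (HFD). The caecal content of several donors was pooled for each kind of transplant, and the mice were group-housed with no cage given in the labels, so effects of the donor pool or cage cannot be told apart from the groups. The question for these genes is whether hepatic FMO expression differed between vehicle, lean-microbiota and HFD-microbiota mice.

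The 75th percentile of the signal lay between 152.5 and 219.6 over the 16 arrays, and Agilent's software called 49.7% to 58.3% of the probes of an array well above background, with 0 saturated spots. The arrays lay on 2 slides, each with mice of all 3 groups. All 8 hepatocyte markers were well above background on every array, as were 8 of 8 Kupffer cell and 8 of 8 sinusoidal endothelial markers. Of 8 markers of exocrine pancreas, Prss1, Cpa1 and Try4 were well above background on no array and 4 on all arrays, and of 6 lung markers Scgb1a1 was on none and 2 were on all. Summed levels of a list are given as log2 of the sum of its unlogged values, so bright markers weigh most. Those of the 4 tested pancreas markers spanned 4.99 to 5.39 in Conv + PBS, 4.68 to 5.65 in Conv + LM and 4.54 to 5.26 in Conv + OM(HFD) mice. The brightest was Cela1 (mean log2 value 4.80), against 2.77 for Amy2a5, -0.58 for Ctrb1 and -2.93 for Cel. Those of the 4 tested adipose markers spanned 1.96 to 2.48, 2.05 to 3.84 and 1.93 to 2.46, in the same order of groups. The part of either tissue in the results was not tested. All 12 genes of a male-biased list passed the filter on dim probes, against 4 of 12 female-biased ones. In whole liver, fewer cells of a type and less RNA per cell cannot be told apart.

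On these arrays each spot carries a DNA probe of 60 bases, and what a probe reads depends on where in the transcript it lies. The probes below are shown because they decide what each FMO value means. They are written 5′ to 3′ as the array design gives them, in the sense of the mRNA, with capitals for AATAAA, the signal that precedes the cleavage and polyadenylation of an mRNA. Whole probes are given where they lie early in the transcript, and 30 bases of the others.
Fmo1, start at base 721 of NM_010231: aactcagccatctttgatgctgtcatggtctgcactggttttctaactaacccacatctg
Fmo1, start at base 1921 of NM_010231: gatctaactggcttttcaaatgtatggagt
Fmo2, start at base 1627 of NM_018881: cttctttttccaacttcaggggttttaatc
Fmo4, start at base 206 of NM_144878: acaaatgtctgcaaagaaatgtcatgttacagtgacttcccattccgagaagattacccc
Fmo5, start at base 2484 of NM_001161765: tggcacatgctgAATAAAtgctcgttgata
The Fmo5 probe was the only 1 of the 11 to hold AATAAA as written, and 9.77% of all probes on the array hold it. The reverse complement TTTATT was in 1 of the 11 and in 3.85% of all probes. The Fmo1 probe at base 721 has 1 reading frame without a stop codon over its 60 bases, and the Fmo4 probe has 2.

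Fmo1, Fmo2 and Fmo4 lie on chromosome 1 and Fmo5 on chromosome 3. On the mm9 build used by the array design, the brightest Fmo1 probe is at chr1:164760037-164760096, the brightest Fmo2 probe at chr1:164806827-164806886 and the Fmo4 probe at chr1:164738476-164738535, each on the minus strand. The brightest Fmo5 probe is at chr3:97456410-97456469 on the plus strand. In what follows, the brightest probe stands for a gene, and values are log2 of the signal relative to the 75th percentile of the array, so that 0 is the signal that 75% of the probes of an array do not exceed. Signals of different probes also depend on how well each probe binds, so the order of the 4 isoforms in the liver cannot be read from them.

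Fmo5 gave a strong signal in every liver, with a median of 39967 units. In Conv + PBS mice the lowest, median and highest log2 values were 7.54, 7.81 and 8.03. The Conv + LM mice were at 7.40, 8.24, 7.94, 7.91 and 7.56, and the Conv + OM(HFD) mice at 7.78, 7.77, 7.70, 7.74 and 8.09. The groups overlapped, and both the lowest and the highest of the 16 livers were Conv + LM mice, numbers 13 and 14. The means were 7.81 ± 0.17 (SD, n = 6), 7.81 ± 0.33 (SD, n = 5) and 7.82 ± 0.15 (SD, n = 5) in the order given, closer to each other than the spread of any group.

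Fmo1, whose product can oxidise TMA, was well above background on all 16 arrays. The lowest, median and highest Conv + PBS values were 3.52, 3.72 and 4.19. Conv + LM mice had 3.53, 3.89, 3.77, 3.69 and 3.58, and Conv + OM(HFD) mice had 3.64, 4.05, 3.71, 3.72 and 4.02. The highest liver belonged to Conv + PBS mouse 6, and the ranges of the 3 groups overlapped. Mean levels were 3.76 ± 0.23 (SD, n = 6), 3.69 ± 0.15 (SD, n = 5) and 3.83 ± 0.19 (SD, n = 5), respectively. The order of the means was Conv + OM(HFD), Conv + PBS and Conv + LM, and neighbours in that order lay within the spread of the mice.

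Fmo2 was also well above background on all arrays, and its level varied more from mouse to mouse. Conv + PBS mice spanned 1.25 to 2.56 with a median of 1.60. Conv + LM mice were at 1.18, 2.12, 1.86, 1.74 and 1.98, and Conv + OM(HFD) mice at 1.33, 1.91, 2.10, 1.71 and 2.20. Each group thus held a mouse near the bottom of the range (mouse 1 of Conv + PBS, 13 of Conv + LM and 25 of Conv + OM(HFD)). The group means were 1.79 ± 0.48 (SD, n = 6), 1.77 ± 0.36 (SD, n = 5) and 1.85 ± 0.35 (SD, n = 5) in vehicle, lean-microbiota and HFD-microbiota mice, and their differences were smaller than the spread of any group.

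Fmo4 was near the limit of the array. Its only probe was well above background on 7 of 16 arrays, namely on 3 of 6 Conv + PBS, 2 of 5 Conv + LM and 2 of 5 Conv + OM(HFD) arrays. The values spanned -4.10 to -3.47 with a median of -4.03 in Conv + PBS mice. They were -4.00, -3.54, -3.68, -3.64 and -5.21 in Conv + LM mice and -3.93, -4.04, -4.23, -2.50 and -4.07 in Conv + OM(HFD) mice. Conv + LM mouse 17 lay below and Conv + OM(HFD) mouse 29 above all other mice. The means were -3.90 ± 0.25 (SD, n = 6), -4.01 ± 0.69 (SD, n = 5) and -3.75 ± 0.71 (SD, n = 5).

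**Figure D1:**
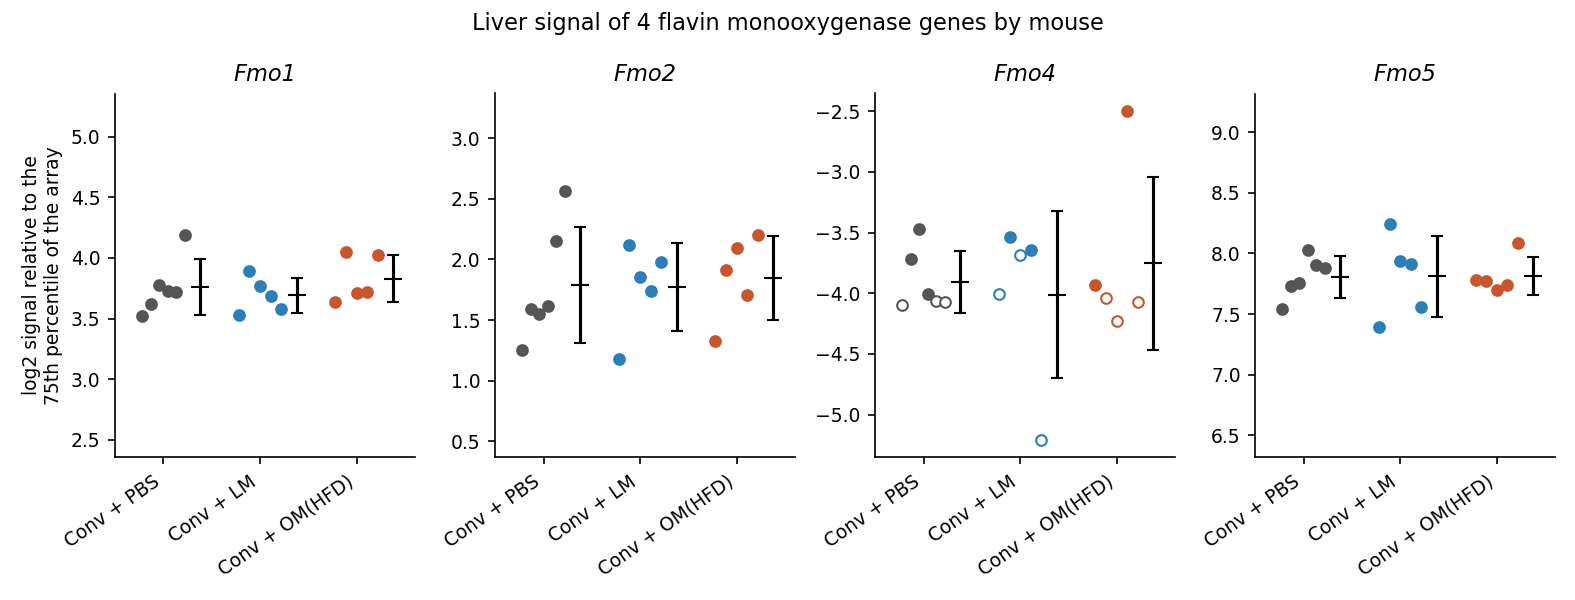
Log2 signal relative to the 75th percentile of the array (vertical axis) of Fmo1, Fmo2, Fmo4 and Fmo5 in each mouse, by group; every panel spans the same number of log2 units. Filled points are well above background, open points are not, and black bars give the mean ± SD; the groups overlap for all 4 genes, and open points occur only for Fmo4.

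The spread within groups, as the SD of the mice around their group means, was 0.20 for Fmo1, 0.23 for Fmo5, 0.41 for Fmo2 and 0.57 for Fmo4 on the log2 scale. The median over all genes tested was 0.24. Fmo1 and Fmo5 therefore varied less than the median gene, while 77.2% of genes had a smaller spread than Fmo2 and 88.5% a smaller spread than Fmo4.

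Conv + OM(HFD) vs. Conv + PBS asks whether the HFD-microbiota altered hepatic FMO expression. None of the 4 genes passed the adjusted threshold of 0.05 in limma, and neither did any gene on the array (0% called). None of the 4 passed the unadjusted threshold of 0.05 used in the study, which 3.25% of all genes passed. The log2 fold change was 0.071 ± 0.12 (SE) for Fmo1, with a 95% interval from -0.18 to 0.33. It was 0.063 ± 0.23 (SE) for Fmo2, with an interval from -0.43 to 0.56. For Fmo4 it was 0.15 ± 0.32 (SE), from -0.54 to 0.83, and for Fmo5 it was 0.0094 ± 0.14 (SE), from -0.28 to 0.30. For Fmo5 the interval covers 0.822-fold to 1.23-fold and for Fmo1 0.880-fold to 1.25-fold, whereas for Fmo4 it reaches from 0.690-fold to 1.78-fold, so that only larger changes of the latter would have been detectable. Exact two-sided permutation tests gave p = 0.604 for Fmo1, 0.814 for Fmo2, 0.786 for Fmo4 and 0.931 for Fmo5, where 5 mice against 6 allow a p of 0.00216 at the least.

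Conv + LM vs. Conv + PBS asks the same of the lean microbiota, and uses the same Conv + PBS mice. Again 0 of 4 genes passed either threshold in limma, against 0% of all genes at the adjusted and 3.88% at the unadjusted threshold. The log2 fold changes were -0.067 ± 0.12 (SE; interval -0.32 to 0.19) for Fmo1, -0.013 ± 0.23 (SE; -0.51 to 0.48) for Fmo2, -0.11 ± 0.32 (SE; -0.79 to 0.57) for Fmo4 and 0.004 ± 0.14 (SE; -0.29 to 0.30) for Fmo5. The exact permutation p was 0.643 for Fmo1, 0.963 for Fmo2, 0.844 for Fmo4 and 0.976 for Fmo5.

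Conv + OM(HFD) vs. Conv + LM sets the transplants against each other. Here too 0 of 4 genes passed, with 0% and 2.67% of all genes at the adjusted and unadjusted thresholds in limma. The differences were 0.14 ± 0.13 (SE; interval -0.13 to 0.40) for Fmo1, 0.075 ± 0.24 (SE; -0.44 to 0.59) for Fmo2, 0.26 ± 0.34 (SE; -0.46 to 0.97) for Fmo4 and 0.0054 ± 0.14 (SE; -0.30 to 0.31) for Fmo5. The exact permutation p was 0.222 for Fmo1, 0.722 for Fmo2, 0.556 for Fmo4 and 0.952 for Fmo5, with 0.00794 as the smallest that 5 against 5 mice allow. The groups overlapped for all 4 genes in each of the 3 comparisons. Over all genes, 0.23%, 0.279% and 0.436% did not overlap in Conv + OM(HFD) vs. Conv + PBS, Conv + LM vs. Conv + PBS and Conv + OM(HFD) vs. Conv + LM, respectively.

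**Figure D2:**
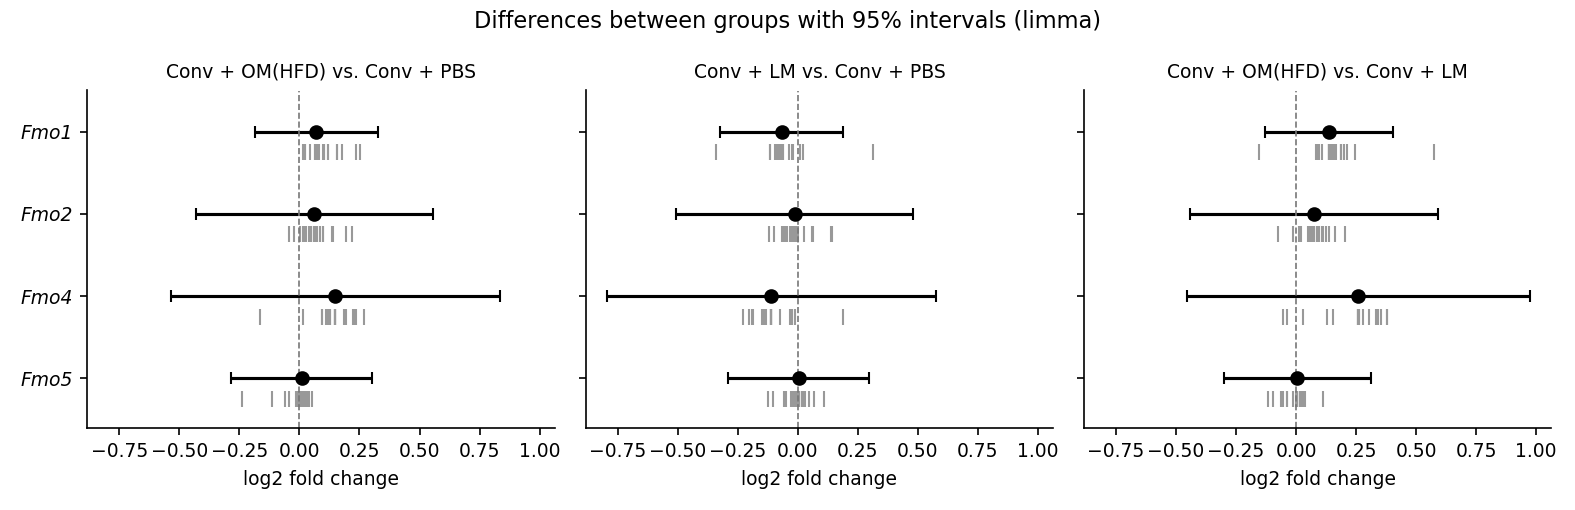
Log2 fold changes (horizontal axis) of the 4 FMO genes in each comparison; points and bars are the estimate and its 95% interval in limma, and grey ticks are the same difference under other processing, other probes or without each mouse in turn. Every interval includes 0, and the intervals of Fmo4 are the widest.

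Leaving out Conv + OM(HFD) mouse 29 turned the Fmo4 difference vs. Conv + PBS to -0.16, and without Conv + LM mouse 17 the Fmo4 difference of Conv + LM mice vs. Conv + PBS was 0.19. By slide, the Fmo4 difference for Conv + OM(HFD) vs. Conv + PBS was -0.33 on slide 1 and 0.79 on slide 2, the slide that held mouse 29. For the same comparison Fmo1 gave 0.086 and 0.075, Fmo2 0.11 and -0.0005, and Fmo5 0.059 and -0.060. For Conv + LM vs. Conv + PBS mice, the values on slides 1 and 2 were 0.0059 and -0.13 for Fmo1, -0.11 and 0.048 for Fmo2, -0.021 and -0.12 for Fmo4, and 0.022 and -0.011 for Fmo5. For Conv + OM(HFD) vs. Conv + LM they were 0.080 and 0.21 for Fmo1, 0.23 and -0.048 for Fmo2, -0.31 and 0.91 for Fmo4, and 0.037 and -0.049 for Fmo5. The mean of Fmo1 was thus higher in Conv + OM(HFD) mice than in the other groups on both slides, with differences that were not tested within slides.

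The other probes read other stretches or transcripts of the same genes. Of the 11 probes 9 passed the filter. For Fmo1, the probe at base 721, at chr1:164780212-164780271, averaged 0.51 ± 0.31 (SD, n = 6), 0.82 ± 0.64 (SD, n = 5) and 0.67 ± 0.25 (SD, n = 5) in vehicle, lean-microbiota and HFD-microbiota mice. Its highest value, 1.87, was that of Conv + LM mouse 17, whose value from the brightest Fmo1 probe was 3.58, the second lowest of its group. A probe at chr1:164763984-164764043, designed on the transcript ENSMUST00000143902, averaged -1.24 ± 0.18 (SD, n = 6), -1.23 ± 0.26 (SD, n = 5) and -0.99 ± 0.28 (SD, n = 5). For Conv + OM(HFD) vs. Conv + PBS the Fmo1 probes other than the brightest gave log2 fold changes of 0.16, 0.23 and 0.25, and the mean of all 4 Fmo1 probes gave 0.18, against 0.071 for the brightest probe. None of these passed the unadjusted threshold of limma.

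The remaining Fmo1 probe, at chr1:164761709-164761768 and designed on ENSMUST00000193766, was dim and was well above background on 15 of 16 arrays. Conv + LM mice were at -2.88, -3.19, -3.42, -3.11 and -3.22, and Conv + OM(HFD) mice at -2.65, -3.06, -2.64, -2.42 and -2.15. All but 1 Conv + OM(HFD) mouse lay above all Conv + LM mice, and the groups overlapped by mouse 26 of the former and mouse 13 of the latter. The difference of 0.58 ± 0.23 (SE) had an unadjusted p of 0.0214 in limma and an adjusted p of 0.999 over all probes, so it did not pass. It was the only 1 of 27 values (9 probes in 3 comparisons) past the unadjusted threshold. With each probe tested on its own, 3.16%, 3.85% and 2.69% of the 30659 probes passed it in Conv + OM(HFD) vs. Conv + PBS, Conv + LM vs. Conv + PBS and Conv + OM(HFD) vs. Conv + LM, so 1 of 27 is near the share over all probes.

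For Fmo2, a probe further along the transcript at chr1:164805530-164805589 gave differences of 0.084 for Conv + OM(HFD) vs. Conv + PBS, 0.064 for Conv + LM vs. Conv + PBS and 0.020 for Conv + OM(HFD) vs. Conv + LM. It lies 1297 bases downstream of the brightest Fmo2 probe. A pair of further Fmo2 probes, designed on other transcripts, were well above background on 1 and 0 arrays. For Fmo5, the probe at chr3:97457388-97457447 lies 978 bases downstream of the probe that holds AATAAA, in the same RefSeq transcript. It was well above background on all 16 arrays, with means of 2.66 ± 0.26 (SD, n = 6), 2.53 ± 0.38 (SD, n = 5) and 2.42 ± 0.32 (SD, n = 5). Its difference of -0.24 ± 0.19 (SE) for Conv + OM(HFD) vs. Conv + PBS had the opposite sign to that of the brightest Fmo5 probe, and an unadjusted p of 0.215 in limma.

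**Figure D3:**
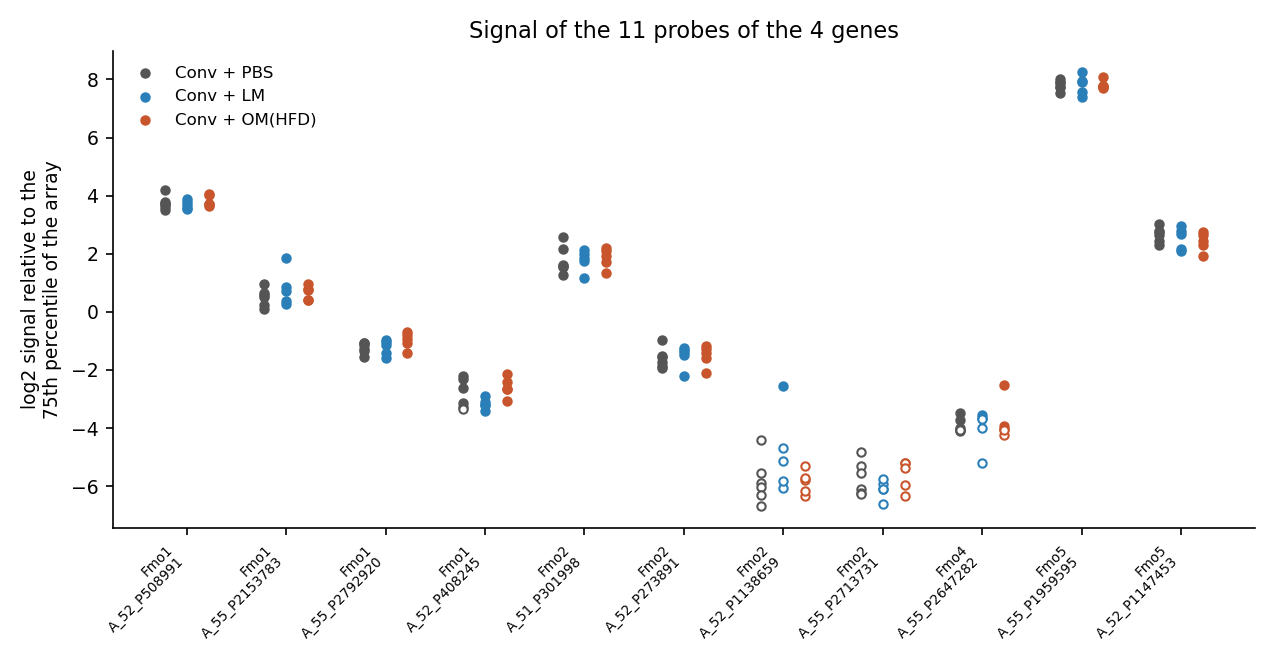
Log2 signal relative to the 75th percentile of the array (vertical axis) for the 11 probes of the 4 genes (horizontal axis), each point a mouse coloured by group, open where not well above background. A pair of Fmo2 probes and the Fmo4 probe are mostly open; heights of different probes are not comparable, and within each probe the groups overlap.

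Probes of the same gene agreed to different degrees over the mice. Over the 16 mice, deviations from the group means of the Fmo2 probes at bases 1627 and 2924 correlated with r = 0.90 (permutation p = 8e-05, adjusted over 8 pairs 0.00064) and rho = 0.85 (permutation p = 0.00029, adjusted 0.0023). Without the 2 mice farthest from the median r was 0.79, and it was 0.93 and 0.95 on slides 1 and 2. For the Fmo5 probes r was 0.55 (permutation p = 0.0654, adjusted 0.174) and rho 0.49 (permutation p = 0.0921, adjusted 0.184), with r of 0.50 without 2 mice and of 0.67 and 0.62 by slide. For Fmo1, the brightest probe and that at base 721 gave r = 0.36 (permutation p = 0.148, adjusted 0.296) and rho = 0.52 (permutation p = 0.0436, adjusted 0.116). This r was 0.94 on slide 1 and 0.22 on slide 2, which held mouse 17, and 0.16 without the 2 mice farthest from the median. Of the 8 pairs, those of Fmo2 alone passed after adjustment.

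Relations among the FMO genes were taken from the brightest probe of each. Of the 6 pairs of genes, Fmo1 with Fmo2 and Fmo1 with Fmo5 varied together between mice of a group after adjustment. The other Fmo1 probes, whose r with the brightest was 0.30, 0.36 and 0.55, were not set against other genes. Fmo1 and Fmo2 deviations gave r = 0.77 (permutation p = 0.00207, adjusted over 6 pairs 0.0124) and rho = 0.66 (permutation p = 0.013, adjusted 0.039). Within vehicle, lean-microbiota and HFD-microbiota mice r was 0.87, 0.71 and 0.62, and by slide 0.74 and 0.89. Without Conv + PBS mouse 6 and Conv + OM(HFD) mouse 26, the farthest from the median, r was 0.68 (permutation p = 0.0178). Mice 1, 13 and 25, named above, were the lowest of their groups for both genes.

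Fmo1 and Fmo5, which lie on different chromosomes, gave r = 0.61 (permutation p = 0.00805, adjusted 0.0241) and rho = 0.69 (permutation p = 0.00557, adjusted 0.0334). This r was 0.47, 0.98 and 0.60 within the 3 groups in the same order, 0.86 and 0.50 by slide, and 0.87 (permutation p = 0.00053) without the same 2 mice. For Fmo2 and Fmo5, r = 0.55 (permutation p = 0.028, adjusted 0.056) and rho = 0.52 (permutation p = 0.0499, adjusted 0.0998) did not pass after adjustment, and r was 0.44 (permutation p = 0.104) without Conv + LM mouse 13 and Conv + PBS mouse 6. By slide it was 0.76 and 0.26.

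Fmo4 showed no such relation that could be detected near background. With Fmo1 its r was 0.033 (permutation p = 0.9, adjusted 0.9), with Fmo2 -0.20 (permutation p = 0.412, adjusted 0.54) and with Fmo5 0.26 (permutation p = 0.45, adjusted 0.54). The corresponding rho values were 0.17 (permutation p = 0.541), -0.23 (permutation p = 0.364) and 0.27 (permutation p = 0.353). By slide r was 0.38 and -0.11 with Fmo1, -0.13 and -0.21 with Fmo2, and 0.41 and 0.48 with Fmo5. Without the 2 farthest mice r was 0.23, -0.22 and 0.34, in the same order.

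**Figure D4:**
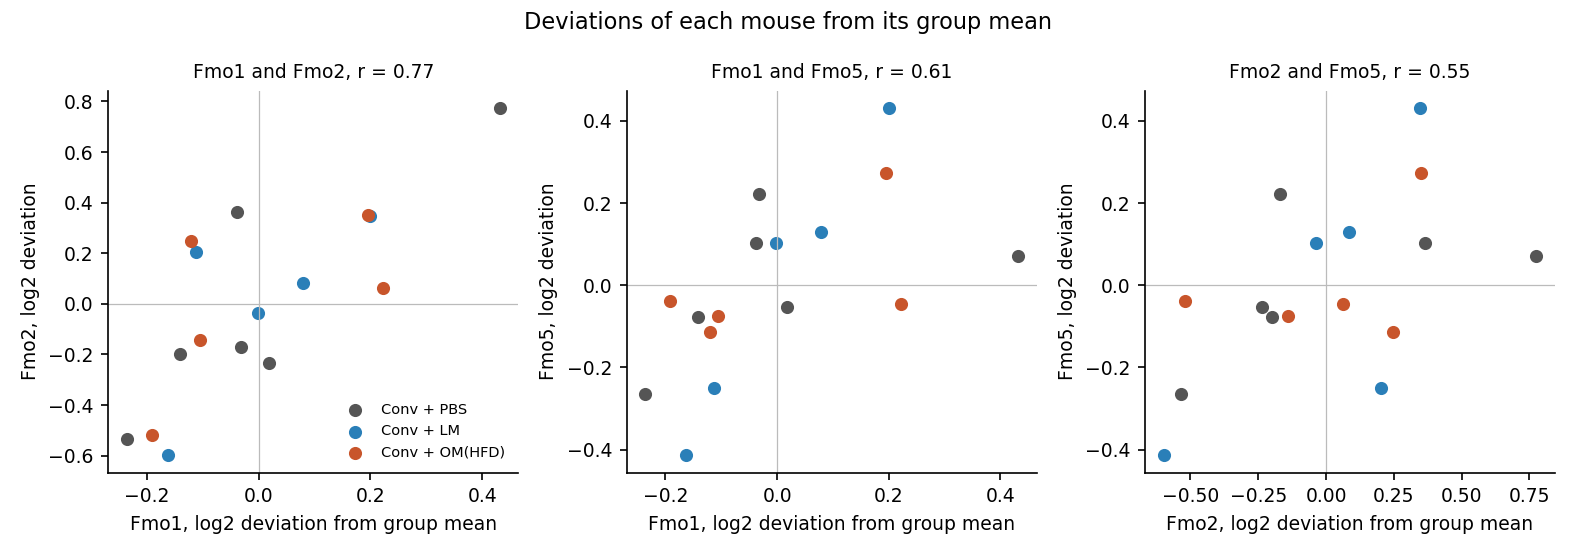
Deviation of each mouse from its group mean (log2 units) for Fmo1 and Fmo2, Fmo1 and Fmo5, and Fmo2 and Fmo5, with each point a mouse coloured by group. Points rise from lower left to upper right, with r of 0.77, 0.61 and 0.55, and mice of all groups lie at both ends.

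Among 17027 other genes well above background on all arrays, those most like each FMO gene over the 16 mice were named by their r, as a description. They share the array and the RNA sample of each mouse. For Fmo5 they were Rhobtb1 (r = 0.90), Tat (r = 0.87), which encodes the tyrosine-degrading enzyme tyrosine aminotransferase, known to be induced by glucocorticoids, and Ppp1r3b (r = 0.86), which encodes the subunit that targets protein phosphatase to glycogen. For Fmo2 they were the transcription factor genes Tead1 (r = 0.90) and Tead2 (r = 0.90) and Plin4 (r = 0.88), which encodes a lipid droplet coat protein. For Fmo1 they were Napb (r = 0.86), LOC102642943 (r = 0.85) and LOC102641578 (r = 0.84). For Fmo4, ranked against 17028 genes, they were the histone demethylase gene Kdm2b (r = 0.80), Tamm41 (r = 0.77), which acts in mitochondrial cardiolipin synthesis, and BC030308 (r = 0.77). The median r over all ranked genes lay between -0.0026 and 0.043 for the 4 genes. None of the 12 named genes passed the unadjusted threshold of limma in any comparison.

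Of other genes of the family, the probes of Fmo6 and Fmo9 were well above background on 0 and 1 of 16 arrays.

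Genes around the TMAO route were taken from 14 lists written for these genes, which hold 156 genes, of which 145 were tested. The unadjusted threshold of limma was passed by 6 of 145 (4.14%) in Conv + OM(HFD) vs. Conv + PBS, by 7 (4.83%) in Conv + LM vs. Conv + PBS and by 4 (2.76%) in Conv + OM(HFD) vs. Conv + LM, and the adjusted threshold by none. Those that passed were 1 higher and 5 lower, 3 higher and 4 lower, and 0 higher and 4 lower, respectively, where all genes split into 303 higher and 360 lower, 366 and 426, and 281 and 264. For the genes named below from these lists, p is that of the exact two-sided permutation test over mice, and their adjusted p in limma was 0.998 or above. These shares lie near the 3.25%, 3.88% and 2.67% of all genes. The median log2 fold change over the 145 genes was -0.0004, 0.012 and -0.013, respectively, and -0.0021, -0.011 and 0.0034 over all genes tested.

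In the use of TMA precursors, 1 of 13 choline and betaine genes passed the unadjusted threshold. This was Bhmt2, a methyltransferase of methionine formation, higher by 0.23 ± 0.10 (SE) in Conv + LM vs. Conv + PBS mice (exact permutation p = 0.00649). Of 9 carnitine genes, Tmlhe, which starts carnitine synthesis from trimethyllysine, passed in 2 comparisons. It was at -0.98 ± 0.28 (SD, n = 5) in Conv + OM(HFD), -0.70 ± 0.18 (SD, n = 6) in Conv + PBS and -0.61 ± 0.08 (SD, n = 5) in Conv + LM mice, so that it differed by -0.28 (exact permutation p = 0.0693) and -0.37 (p = 0.0238) in Conv + OM(HFD) mice. The median over the carnitine genes was 0.12 for Conv + OM(HFD) vs. Conv + PBS, opposite in sign to Tmlhe.

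Among 7 tested transporters of organic cations and related substrates, Abcb1a, an efflux pump, differed by -0.48 ± 0.17 (SE; exact permutation p = 0.0325) in Conv + OM(HFD) and by -0.41 ± 0.17 (SE; p = 0.0606) in Conv + LM mice from the same Conv + PBS mice. Slc47a1, a proton-coupled exporter of organic cations, differed by -0.47 ± 0.16 (SE) for Conv + OM(HFD) vs. Conv + LM (exact permutation p = 0.0159). In this list 6 of 7 genes had a negative log2 fold change for Conv + OM(HFD) vs. Conv + PBS, the median being -0.086, where 50.7% of all genes had a negative one.

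Of 16 regulators named for liver FMOs, 2 passed the unadjusted threshold in Conv + OM(HFD) vs. Conv + PBS, in opposite directions. Nr1i2, the xenobiotic receptor PXR, differed by 0.24 ± 0.11 (SE; exact permutation p = 0.0498) and Nfe2l2, the oxidative stress factor NRF2, by -0.24 ± 0.11 (SE; p = 0.0281). The bile acid receptor gene Nr1h4 did not pass in any comparison.

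For the supply of FAD and NADPH, which FMOs consume, 11 genes were tested. Pgd, of the pentose phosphate pathway, was at 1.37 ± 0.25 (SD, n = 5) in Conv + OM(HFD) mice and at 1.76 ± 0.24 (SD, n = 6) and 1.74 ± 0.26 (SD, n = 5) in Conv + PBS and Conv + LM mice, with differences of -0.39 (exact permutation p = 0.0216) and -0.37 (p = 0.0556). In Conv + LM vs. Conv + PBS mice, Me1, malic enzyme, differed by -0.42 ± 0.15 (SE; exact permutation p = 0.00866) and G6pdx, which opens the pentose phosphate pathway, by -0.44 ± 0.18 (SE; p = 0.0195). The medians of the list were -0.018, -0.023 and 0.0096 in the 3 comparisons.

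None of the 12 genes linked to TMAO effects, among them the bile acid synthesis gene Cyp7a1 and Eif2ak3, which encodes the endoplasmic reticulum stress kinase PERK, passed the unadjusted threshold. In Conv + LM vs. Conv + PBS mice 10 of these 12 had a higher mean, with a median of 0.10, and in Conv + OM(HFD) vs. Conv + LM mice 10 of 12 had a lower mean, with a median of -0.14. Over all genes, 53.1% and 49% had a lower mean in these comparisons, which both use the Conv + LM mice. Since FMO levels in mouse liver are known to depend on sex hormones, the 12 male-biased and 4 tested female-biased genes were also examined. Cyp4a12a, of the male-biased ones, differed by 0.42 ± 0.19 (SE) in Conv + LM vs. Conv + PBS mice (exact permutation p = 0.0801), and no other passed.

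Of 12 pericentral genes 0 and of 12 periportal genes 1 passed, namely Ctsc, with -0.40 ± 0.18 (SE) in Conv + LM vs. Conv + PBS mice (exact permutation p = 0.0693). Cyb5r3, of 16 other phase I oxidases and reductases, differed by -0.24 ± 0.10 (SE) in Conv + OM(HFD) vs. Conv + PBS mice (exact permutation p = 0.0260). Of the clock genes, Per2 differed by -0.35 ± 0.14 (SE) in Conv + OM(HFD) vs. Conv + LM mice (exact permutation p = 0.0476), and 0 of 9 fasting and PPARA targets passed. Summed levels of 7 neutrophil markers spanned 1.67 to 5.12 in Conv + PBS, 1.71 to 2.09 in Conv + LM and 1.76 to 5.10 in Conv + OM(HFD) mice, and those of 8 Kupffer cell markers 5.16 to 7.69, 4.85 to 5.47 and 5.06 to 6.53. Summed levels of 8 sinusoidal endothelial markers spanned 5.78 to 5.99, 5.43 to 5.93 and 5.22 to 5.95 in the same order, of 8 stellate cell and fibroblast markers 6.23 to 6.67, 6.15 to 6.69 and 6.04 to 6.56, and of 8 bile duct markers 2.77 to 3.67, 3.02 to 3.64 and 2.58 to 3.80. Over the 12 marker lists, 6 of 70 tested genes (8.57%) passed the unadjusted threshold of limma in Conv + OM(HFD) vs. Conv + PBS, all lower, where 3.25% of all genes passed. In Conv + LM vs. Conv + PBS 0 of 70 passed and in Conv + OM(HFD) vs. Conv + LM 3 of 70 (Lrat with -0.39, Tspan8 with -1.18 and the pancreas marker Cel with -0.55), where 3.88% and 2.67% of all genes did. Tspan8 was well above background on only 6 of 16 arrays. The markers named here and in the following paragraphs were chosen after their values were seen.

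Within the lists the markers did not all have the same sign. For Conv + OM(HFD) vs. Conv + PBS, 2 of 8 stellate cell and fibroblast markers passed, Lrat with a log2 fold change of -0.63 and Dcn with -0.26, but 4 of 8 had a positive value (Col1a1 0.64 and Des 0.54 among them) and the median was -0.048. Of 8 bile duct markers 2 passed (Tspan8, with -0.93, among them), while Epcam had 0.47 and Sox9 0.42, neither past the threshold, and the median was -0.14. The 2 that passed were well above background on only 6 of 16 arrays each, Epcam on 11 and Des, named above, on 9. Of the sinusoidal endothelial markers Clec4g, with -0.48, passed, and 7 of 8 had a negative value, with a median of -0.22. In Conv + LM mice vs. the same Conv + PBS mice none passed, but 7 of 8 were also negative, with a median of -0.15 and Clec4g at -0.36. The remaining gene that passed in Conv + OM(HFD) vs. Conv + PBS was 1 of 6 lymphocyte markers, of which 4 had a negative value.

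None of the Kupffer cell, neutrophil or hepatocyte markers passed in any of the 3 comparisons, but in several of them the log2 fold changes of a list all had 1 sign. All 8 Kupffer cell markers had a negative value in Conv + OM(HFD) and in Conv + LM vs. Conv + PBS, with medians of -0.14 and -0.48, and all 8 had a positive value in Conv + OM(HFD) vs. Conv + LM, with a median of 0.35. All 7 neutrophil markers had a negative value in Conv + LM vs. Conv + PBS, with a median of -0.55. In Conv + OM(HFD) vs. Conv + PBS 6 of the 7 had a positive value, with a median of 0.10, and in Conv + OM(HFD) vs. Conv + LM all 7 did, with a median of 0.96. That median is the value of Ngp (0.96 ± 1.04, SE), which was well above background on only 5 of 16 arrays. The 4 markers well above background on all arrays were at 1.20 (S100a9), 0.65 (Camp), 0.10 (Ly6g) and 0.096 (Elane). All 8 hepatocyte markers had a positive value in Conv + OM(HFD) vs. Conv + PBS, with a median of 0.085, against 3 of 8 in Conv + LM vs. Conv + PBS. No tested adipose or red blood cell marker passed either. The 4 tested adipose markers were all positive in Conv + LM vs. Conv + PBS, with a median of 0.45. In Conv + OM(HFD) vs. Conv + LM all 4 were negative, with a median of -0.95, and in Conv + OM(HFD) vs. Conv + PBS 3 were. The 5 tested red blood cell markers were all positive vs. Conv + PBS, with medians of 0.15 for Conv + OM(HFD) and 0.23 for Conv + LM. Over all genes 50.7%, 53.1% and 49% had a negative value for Conv + OM(HFD) vs. Conv + PBS, Conv + LM vs. Conv + PBS and Conv + OM(HFD) vs. Conv + LM. Genes of the same cell type are not independent, so these counts got no test. The part of any of these cell types or tissues in the values above was not tested.

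**Figure D5:**
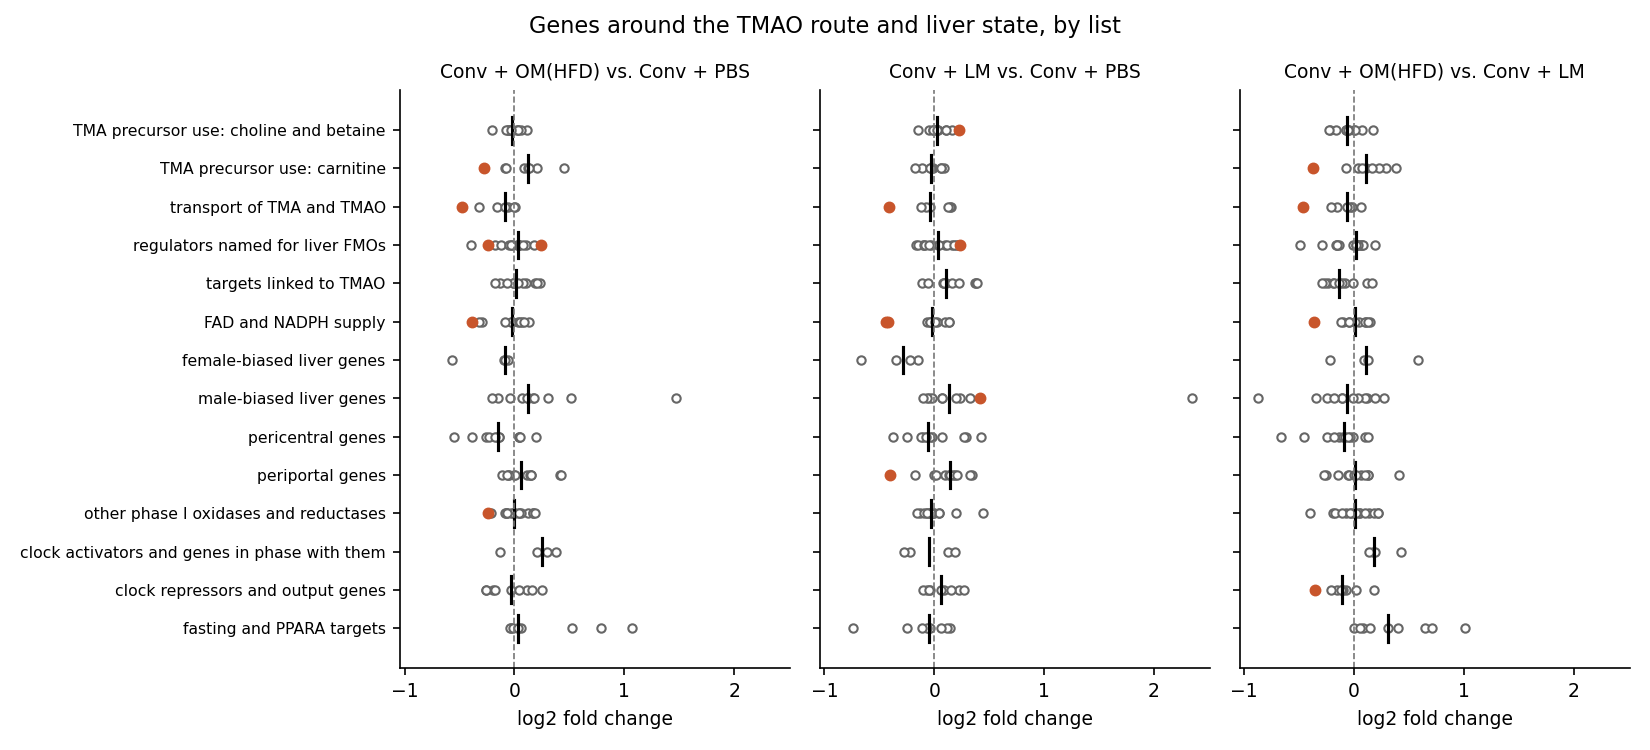
Log2 fold changes (horizontal axis) of the tested genes of 14 lists (vertical axis) in the 3 comparisons; each circle is a gene, filled where the unadjusted limma p is under 0.05, and the black line is the median of the list. Of 145 different genes, 1 higher and 5 lower, 3 higher and 4 lower, and 0 higher and 4 lower are filled in the 3 comparisons, from left to right.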

How the data were processed

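Liver RNA of 16 mice was measured, with groups taken from the labels. Per the labels, the authors extracted signals with Agilent Feature Extraction 10.10.1.1. The deposited intensity values used here had their background subtracted and had not been scaled across arrays, and the deposited table of log2 values by the authors matched the quantile-normalized log2 of the median spot intensity. All of its columns matched a mouse. Control spots and outlier spots (63 to 206 per array) were left out, repeated spots were averaged, and log2 values were set relative to the 75th percentile of their array. A minimum of 5 of 16 arrays with a signal well above background was required of a probe (30659 probes of 20400 genes), and the probe with the highest mean stood for a gene. Names and mm9 positions are those of the array design, and 14632 of the 20400 names are symbols of RefSeq (GRCm38.p6), 701 synonyms and 5067 neither.

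All groups entered the same linear model (limma 3.58.1, R 4.3.3; lmFit, eBayes), with Benjamini-Hochberg adjustment over all genes. The methods' t-test is an unpaired Student's test of the main values, taken from the general statistics of the study, which names no test for the arrays. Permutation tests were two-sided, exact over mice for differences and with 100000 draws within groups for relations (Python 3.11.15, scipy 1.17.1). Alternatives were normexp (offset 50) or quantile normalization, the authors' values, other filters, slide as a block, only the groups compared, array weights, other probes, the methods' t-test and leaving out each mouse. The fit was tested on simulated data. Named genes are the 4 members, other genes of the family, at most 3 genes per list and comparison at an unadjusted p under 0.05, the 3 genes most like each member and markers. Members and lists were chosen with earlier results of these data known. Precision is limited by the number of mice. Some results that this rule would name are not reported here.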

Additional observations from a re-analysis of the deposited data

Results flagged for a closer look

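In each group, the highest and lowest mouse were compared with the rest by Dixon's ratio, the gap to the nearest mouse over the range of the group. Of 27 groups of mice examined (9 probes in 3 groups), 4 held a mouse past the 95% limit, where chance gives about 1 in 20. Fmo4 in Conv + OM(HFD) mouse 29 was at -2.50, with the nearest mouse at -3.93, and in Conv + LM mouse 17 at -5.21, with the nearest at -4.00 and a signal not well above background. Fmo5 in Conv + OM(HFD) mouse 30 was at 8.09, above 7.78 in the next mouse. From its dimmer probe, Fmo2 in Conv + LM mouse 13 was at -2.20, below -1.49 in the next mouse, and the same mouse was the lowest of its group for the brightest Fmo2 probe.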

How the results depend on the processing

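No FMO gene passed the adjusted threshold in limma under any alternative run, and 0 genes were called in any comparison. No paired analysis was possible because the groups share no mouse numbers. Genes at an unadjusted p under 0.05 in Conv + OM(HFD) vs. Conv + LM rose from 545 to 862 with slide as a block, and 825 of 30659 probes passed when probes were tested singly. By the methods' t-test there were 608 and 746 such genes in Conv + OM(HFD) and Conv + LM vs. Conv + PBS. Of 260 recomputed FMO differences, 44 changed sign, and the only 1 past the unadjusted threshold was the dim Fmo1 probe (0.58). For Fmo5, Conv + OM(HFD) vs. Conv + PBS was -0.016 with normexp, -0.0043 with the authors' values, -0.12 for the mean of its probes and -0.24 for its other probe. Conv + LM vs. Conv + PBS was -0.0035 with array weights, -0.059 for the mean of probes and -0.12 for the other probe. Conv + OM(HFD) vs. Conv + LM was -0.039 with normexp, -0.014 with quantile normalization, -0.036 with the authors' values, -0.0003 with the slide block, -0.056 for the mean of probes and -0.12 for the other probe. For Fmo1, Conv + LM vs. Conv + PBS was 0.31 and 0.0081 for other probes and Conv + OM(HFD) vs. Conv + LM -0.16 for the probe at base 721. For Fmo2, Conv + LM vs. Conv + PBS was 0.0001 with array weights, 0.026 for the mean of probes and 0.064 for the other probe.

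Leaving out each mouse in turn gave, for Conv + OM(HFD) vs. Conv + PBS, 0.015 (without Conv + OM(HFD) 26) to 0.16 (without Conv + PBS 6) for Fmo1, against 0.071 with all mice, -0.044 to 0.22 for Fmo2, -0.16 to 0.27 for Fmo4 and -0.059 to 0.054 for Fmo5. For Conv + LM vs. Conv + PBS it gave -0.12 to 0.020 for Fmo1, -0.12 to 0.14 for Fmo2, -0.23 to 0.19 for Fmo4 and -0.10 to 0.11 for Fmo5. For Conv + OM(HFD) vs. Conv + LM it gave 0.082 to 0.19 for Fmo1, -0.075 to 0.20 for Fmo2, -0.054 to 0.38 for Fmo4 and -0.098 to 0.11 for Fmo5. The r of Fmo1 with Fmo2 (0.62 to 0.83) and with Fmo5 (0.55 to 0.74) stayed past the unadjusted permutation threshold without any mouse. That of Fmo2 and Fmo5 (0.40 to 0.65) did not without Conv + PBS 1, Conv + LM 13, Conv + LM 14 or Conv + OM(HFD) 30. For Fmo1 and Fmo4 r was -0.021 with quantile normalization, -0.084 with the authors' values and -0.11 to 0.20 without each mouse, and for Fmo4 and Fmo5 -0.11 with normexp and -0.013 with the authors' values. The cause of these changes was not tested. Fmo4 lay near background, which limits its values.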
